A study of Mus musculus with 4 samples.

Results

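The mitochondrial genome of the mouse carries 37 genes, and all of them were in the deposited table of 54021 gene symbols, where they are the symbols that start with mt-. They are 13 protein genes, 2 rRNA genes and 22 tRNA genes. RNA was taken from rOvaries, ovarian grafts that form when primordial germ cells are aggregated with somatic cells of fetal gonads and placed under the kidney capsule. The donors were C57BL/6 mice with an actin-GFP transgene. The recipients of all 4 libraries were young adult, ovariectomized G2 Terc-/- females, the second generation without the RNA component of telomerase, and the grafts were collected a month after transplantation. The 2 INK128 libraries came from recipients given INK128, an inhibitor of the kinase mTOR, in the drinking water at 0.75 uM per g by the labels, and the 2 control libraries from recipients without it. The study's methods give the dose as a different figure, a concentration in the water. The libraries keep their label numbers here, as INK128 1, INK128 2, control 1 and control 3. Each graft mixes cells of pooled fetal gonads, whose donors have telomerase, with vessels and other cells of a host that lacks it. The comparison asks how the RNA of the grafts differs with INK128, here for the RNA made from mitochondrial DNA.

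Mitochondrial DNA is copied into long precursors from both of its strands, and the tRNAs that stand between the other genes are cut out to free the mRNAs and rRNAs. The mRNAs encode core subunits of the respiratory chain and of the ATP synthase, and the rRNAs and tRNAs serve the mitochondrion's own ribosomes. Every enzyme of transcription and processing, and most subunits of the same complexes, are encoded in the nucleus. Oocytes hold far more mitochondrial DNA than somatic cells, and steroid-making cells of the ovary start hormone synthesis inside mitochondria. Transcripts of 1 precursor are not independent of each other, so the genes below are not replicates.

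On the mm10 reference, 28 of the 37 genes lie on the plus strand of chromosome M and 9 on the minus strand, which are mt-Nd6 and 8 tRNA genes. Genes stand so close that 9 pairs of neighbours share bases. The longest shared stretch is the 43 bases in both mt-Atp8 and mt-Atp6, the subunits of ATP synthase, and the 7 bases shared by the complex I genes mt-Nd4l and mt-Nd4 are the other case of mRNA genes that overlap on the same strand by more than 1 base. Both junctions are shown because a read across the capitals, the bases in both genes, could be assigned to either.
mt-Atp8 and mt-Atp6, chrM:7915-7981, plus strand: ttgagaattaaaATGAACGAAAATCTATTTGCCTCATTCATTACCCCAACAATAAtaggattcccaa
mt-Nd4l and mt-Nd4, chrM:10147-10193, plus strand: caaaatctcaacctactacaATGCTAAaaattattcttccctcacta
On opposite strands, mt-Nd5 and mt-Nd6 share 14 bases. Of the 13 mRNAs, 10 end in a whole stop codon and 3, mt-Co3, mt-Nd4 and mt-Cytb, end in the T that polyadenylation completes to a stop codon.

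Parts of the mitochondrial genome also lie in the nuclear genome as copies, and the longest annotated run of them is on chromosome 1. Between chr1:24611535-24616197 on the minus strand, 7 annotated genes follow the order of 7 mitochondrial genes, from the end of mt-Co1 to the start of mt-Nd4. A stretch of mt-Co1, which encodes the catalytic subunit of complex IV, is shown with its place in 2 such copies. Capitals mark bases that differ from mt-Co1, of which Gm29216 has none and Gm13340 has 3.
mt-Co1, chrM:6450-6509, plus strand: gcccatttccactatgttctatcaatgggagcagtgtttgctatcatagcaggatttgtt
Gm29216, chr1:24616069-24616128, minus strand: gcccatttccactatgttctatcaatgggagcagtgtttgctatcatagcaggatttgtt
Gm13340, chr2:22588466-22588525, minus strand: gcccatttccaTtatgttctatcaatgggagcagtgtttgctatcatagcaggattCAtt
Of all windows of 100 bases in a gene, the share found unchanged in another annotated transcript was 99.5% for mt-Co2, 99.5% for mt-Atp6, 99.9% for mt-Co3, 97.6% for mt-Nd3 and 98.5% for mt-Nd4l. It was 60.8% for mt-Nd4, 30.8% for mt-Co1 and 3.2% for mt-Nd2. No such window was found in mt-Nd1, mt-Nd5, mt-Nd6, mt-Cytb, mt-Atp8 or the 2 rRNA genes, although the place of mt-Atp8 in the chromosome 1 run, chr1:24614609-24614812, lies beyond the annotated copy of mt-Atp6 apart from the 43 bases that the 2 genes share, and the rest of it holds no annotated gene and so was not searched. A read from a shared window has more than 1 place of equal match, and how such reads were counted is not given in the sources used here.

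Library totals were between 19130209 and 23029089 counts. The grafts held markers of granulosa cells in all 4 libraries (CPM, counts scaled to library size with TMM factors, summed over 7 genes to 5560 and 7410 in INK128 1 and 2 and 2910 and 5500 in controls 1 and 3, with 3 of the 7 higher in both INK128 libraries). The 8 oocyte markers, 6 of them higher in both INK128 libraries, summed to 1150 and 844 CPM in INK128 1 and 2, 813 CPM in control 1 and 26.1 CPM in control 3. Of 10 kidney markers, 9 were lower in both INK128 libraries, with sums of 29.8 and 107 CPM against 449 and 1110 CPM in controls 1 and 3. Of 6 immune markers, 4 were lower in both INK128 libraries (81.6 and 73.4 CPM against 140 and 205 CPM), and 8 muscle markers summed to 3290 and 3230 CPM against 507 and 965 CPM, with 4 of the 8 higher in both INK128 libraries and 2, Ckm and Acta1, lower. The 6 steroidogenic and luteal markers gave 3760, 4950, 732 and 10800 CPM, and the 4 Sertoli markers 122, 120, 1070 and 60.2 CPM, in the order INK128 1, INK128 2, control 1 and control 3. The 5 erythroid markers summed to 97.4, 91.4, 22.3 and 56.7 CPM, with 3 of the 5 higher in both INK128 libraries and 1, Alas2, lower. The 3 endothelial markers summed to 257, 287, 371 and 489 CPM, with 1 of the 3, Kdr, lower in both INK128 libraries. These counts stand against 68.5% of all genes tested whose levels did not overlap between the groups. None of these markers was at or under 3 counts in every library. The part of the cell types in the mitochondrial values was not tested, and in whole grafts fewer cells of a type and less RNA per cell cannot be told apart.

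Mitochondrial transcripts took 1.56% of the counts of INK128 1, 3.38% of INK128 2, 4.06% of control 1 and 2.32% of control 3. Exact 95% binomial intervals ran from 1.56% to 1.57% for INK128 1 and from 4.06% to 4.07% for control 1, and cover counting error only. The lowest library was thus an INK128 library and the highest a control, but the other 2 were in the opposite order, so the groups overlapped. Means were 2.47% ± 1.28 (SD, n = 2) with INK128 and 3.19% ± 1.24 (SD, n = 2) in controls. The difference of log2 shares was -0.42 (two-sided exact permutation test, p = 0.667, n = 2 and 2), which is well within the spread of the libraries. It turned to 0.14 without INK128 1, was -0.97 without INK128 2 and -0.82 without control 3, and was -0.01 without control 1. With 2 libraries against 2 an exact permutation test cannot go below p = 0.333.

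Protein genes held 96.4% of all mitochondrial counts, the rRNAs 1.55% and the tRNAs 2.0%. The labels name polyA RNA as the molecule, and rRNA and tRNA carry short poly(A) tails or none. The mRNA share of a library was 1.48% and 3.26% with INK128 and 3.96% and 2.22% in controls 1 and 3. The rRNA share was 0.0281% and 0.0518% against 0.0597% and 0.0365%, in the same order of libraries as the mRNA. The tRNA share had a different order, 0.0581% and 0.0666% with INK128 against 0.0459% and 0.0583% in controls 1 and 3, and over the 4 libraries together mt-Te made up more of it than the other 21 tRNAs, which held 0.889% of mitochondrial counts, though not in control 3. Of 13 shares compared in this way, by class, complex, strand and copy on chromosome 1, the lowest adjusted p of the exact permutation test was 0.788.

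**Figure D1:**
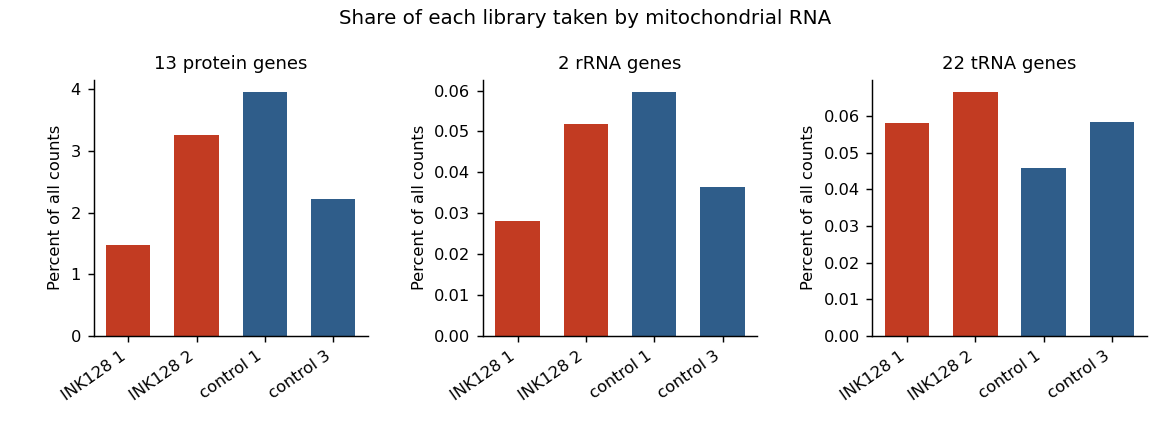
Percent of all counts in each of the 4 libraries that fell on the 13 protein genes, the 2 rRNA genes and the 22 tRNA genes; each bar is 1 library, INK128 in red and control in blue, and each panel has its own axis from 0. The mRNA and rRNA shares were lowest in INK128 1 and highest in control 1, while the tRNA share was lowest in control 1.

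The same order ran through the single genes. All 13 protein genes and both rRNA genes were higher in INK128 2 than in INK128 1, and higher in control 1 than in control 3. Both orders held for 26.0% of the 11758 genes whose mean exceeded 10 CPM. The median ratio of INK128 2 to INK128 1 was 2.03 over the 11 protein genes tested and 1.0 over all tested genes, and that of control 1 to control 3 was 1.83 and 0.992. The tRNAs did not share this order in the controls, where 17 of 22 were higher in control 3 than in control 1.

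Complex I, which passes electrons from NADH to ubiquinone, takes 7 of its core membrane subunits from the mitochondrial genome. mt-Nd1 was at 2160, 4300, 4100 and 2200 CPM in INK128 1, INK128 2, control 1 and control 3, the order kept for all values of this kind below. Its groups covered the same range, and its log2 fold change was 0.04 (SE 0.47). mt-Nd2 was at 1120, 2280, 3900 and 1740 CPM. Its second INK128 library lay between the controls, and the log2 fold change was -0.73 (SE 0.53, adjusted p = 0.366, edgeR quasi-likelihood test). It was -0.03 without control 1 and -1.34 without INK128 2. mt-Nd4 was at 1290, 3280, 2990 and 1490 CPM and mt-Nd6, the single mRNA made from the other strand, at 1100, 1650, 1330 and 1020 CPM, both with overlapping groups. mt-Nd5, the longest of the mRNAs, was at 843, 2060, 3400 and 2730 CPM. Both INK128 libraries were below both controls for mt-Nd5, with a log2 fold change of -1.08 (SE 0.47), and the adjusted p was 0.172 (edgeR). The log2 fold change was -0.59 without INK128 1 and -1.87 without INK128 2.

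The other 2 complex I genes were low, and nearly all of their windows are shared with copies. mt-Nd3 was at 5.10, 6.44, 4.21 and 3.42 CPM. Both INK128 libraries were above both controls, by a log2 fold change of 0.65 (SE 0.40) that did not pass the test (adjusted p = 0.304, edgeR, in a fit of the 17631 genes whose mean exceeded 1 CPM). mt-Nd4l had 19, 60, 478 and 228 counts, or 1.02, 2.76, 21.2 and 9.61 CPM. Every control was more than 3 times as high as the higher INK128 library, and the log2 fold change of -2.96 (SE 0.69) was the largest in size of the 31 tested genes, with an adjusted p of 0.0715 (edgeR). Its copy on chromosome 1, Gm10222, had 63, 162, 281 and 214 counts, more than mt-Nd4l itself in both INK128 libraries and fewer in both controls. With the counts of the copy added, an alternative chosen after seeing the data, the log2 fold change of mt-Nd4l was -1.78 (adjusted p = 0.105, edgeR).

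Complex III, which hands electrons from ubiquinone to cytochrome c, has 1 mitochondrial gene. mt-Cytb was at 3280, 7470, 6370 and 3610 CPM. Its INK128 libraries held both the lowest and the highest value, and the log2 fold change was 0.11 (SE 0.50).

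Complex IV, cytochrome c oxidase, has 3. mt-Co1 was the most counted mitochondrial gene, at 5200, 13200, 15400 and 8440 CPM. Its groups overlapped, with a log2 fold change of -0.38 (SE 0.55) that was 0.13 without INK128 1 and 0.12 without control 1. mt-Co2 was at 59.7, 135, 68.9 and 37.6 CPM and mt-Co3 at 52.1, 63.6, 74.6 and 24.9 CPM, both with overlapping groups and nearly every window shared with a copy. The log2 fold change of mt-Co2 was 0.87 (SE 0.50, adjusted p = 0.272, edgeR), but 0.16 without INK128 2, 1.37 without control 1 and 0.30 with offsets for exon length. That of mt-Co3 was 0.22 (SE 0.54).

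Complex V, the ATP synthase, takes 2 subunits of its proton channel part from the mitochondrial genome. mt-Atp6 was at 32.3, 60.5, 86.4 and 46.0 CPM, with overlapping groups. mt-Atp8 was at 6.98, 12.8, 36.2 and 20.4 CPM, from 130, 279, 818 and 483 counts. Both INK128 libraries were below both controls for mt-Atp8. Its log2 fold change was -1.51 (SE 0.46, adjusted p = 0.0961, edgeR), the largest fall among the 26 genes above a mean of 10 CPM, and it was -2.03 without INK128 2 and -1.03 without control 1.

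The small-subunit rRNA, mt-Rnr1, was at 152, 291, 234 and 146 CPM, and the large-subunit rRNA, mt-Rnr2, at 137, 258, 337 and 205 CPM. Neither separated the groups. Both genes lie on the same precursor. The log2 fold changes were 0.22 (SE 0.41) for mt-Rnr1 and -0.46 (SE 0.41) for mt-Rnr2, and neither passed the test (adjusted p = 0.713 and 0.455, edgeR). The sign of mt-Rnr1 was not stable, with -0.33 without INK128 2 and -0.31 with offsets for exon length.

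The tRNAs were low apart from mt-Te, the tRNA of glutamate. mt-Te was at 371, 433, 224 and 260 CPM. Both INK128 libraries were above both controls, and the replicates of mt-Te were closer to each other than those of any mRNA. Its log2 fold change of 0.73 (SE 0.20) had an adjusted p of 0.0770 (edgeR), the lowest of the 26 genes, but was 0.32 (adjusted p = 0.311, edgeR) with offsets for exon length. Next to it on the minus strand lies mt-Nd6. The other 12 tRNAs with a mean above 10 CPM were between 5.31 and 43.9 CPM in single libraries. mt-Tl1, a tRNA of leucine that follows mt-Rnr2, was at 12.8, 26.3, 41.4 and 39.6 CPM, lower in both INK128 libraries, with a log2 fold change of -1.05 (SE 0.39, adjusted p = 0.132, edgeR) that was -0.64 without INK128 1 and -1.67 without INK128 2. mt-Ts1, a tRNA of serine, was at 31.0, 17.6, 14.0 and 8.94 CPM, higher in both INK128 libraries, with a log2 fold change of 1.08 (SE 0.42, adjusted p = 0.142, edgeR) that was 0.60 without INK128 1 and 0.65 with offsets for exon length.

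mt-Th, mt-Ts2 and mt-Tl2, which stand next to each other between mt-Nd4 and mt-Nd5, were at 5.31, 5.40 and 5.53 CPM in control 1 and at 16, 17.4 and 21.0 CPM in control 3. The INK128 libraries lay between these values for all 3, so their groups overlapped. The minus-strand tRNAs mt-Ta, mt-Tn, mt-Tc and mt-Ty, between mt-Nd2 and mt-Co1, had between 14.1 and 34.3 CPM and also overlapped between groups.

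Among the tRNAs with a mean of 1 to 10 CPM, mt-Tq and mt-Tm were lower in both INK128 libraries. These tRNAs of glutamine and methionine are neighbours on opposite strands, just before mt-Nd2. mt-Tq had 19, 52, 142 and 157 counts, with a log2 fold change of -1.86 (SE 0.57, adjusted p = 0.104, edgeR). mt-Tm had 20, 43, 143 and 173 counts, with a log2 fold change of -2.10 (SE 0.50, adjusted p = 0.0736, edgeR). mt-Tt was at 2.58, 3.96, 1.06 and 3.08 CPM, with overlapping groups. The other 6 tRNAs, mt-Tf, mt-Tv, mt-Td, mt-Tk, mt-Tg and mt-Tr, had at most 27 counts in a library and were not tested. mt-Tk had 3, 1, 1 and 0 counts, and the 0 in control 3 allows up to 0.127 CPM (3 counts). The 4 tRNA genes with an unadjusted p below 0.05 (edgeR), mt-Te, mt-Tl1, mt-Tq and mt-Tm, are shown whole in lower case, as the short targets that reads had to fall on.
mt-Te, chrM:14071-14139, minus strand: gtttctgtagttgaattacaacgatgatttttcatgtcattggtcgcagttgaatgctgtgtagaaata
mt-Tl1, chrM:2676-2750, plus strand: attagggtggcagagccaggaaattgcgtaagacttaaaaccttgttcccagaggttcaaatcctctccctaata
mt-Tq, chrM:3772-3842, minus strand: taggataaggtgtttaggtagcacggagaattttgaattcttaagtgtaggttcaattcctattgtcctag
mt-Tm, chrM:3845-3913, plus strand: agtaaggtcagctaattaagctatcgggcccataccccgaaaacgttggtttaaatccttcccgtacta
A fragment over such a gene may come from the tRNA itself or from an uncut precursor, and, where strand is not used in counting, from the RNA of the opposite strand. These cannot be told apart here, since the strand setting is not given in the sources used here.

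**Figure D2:**
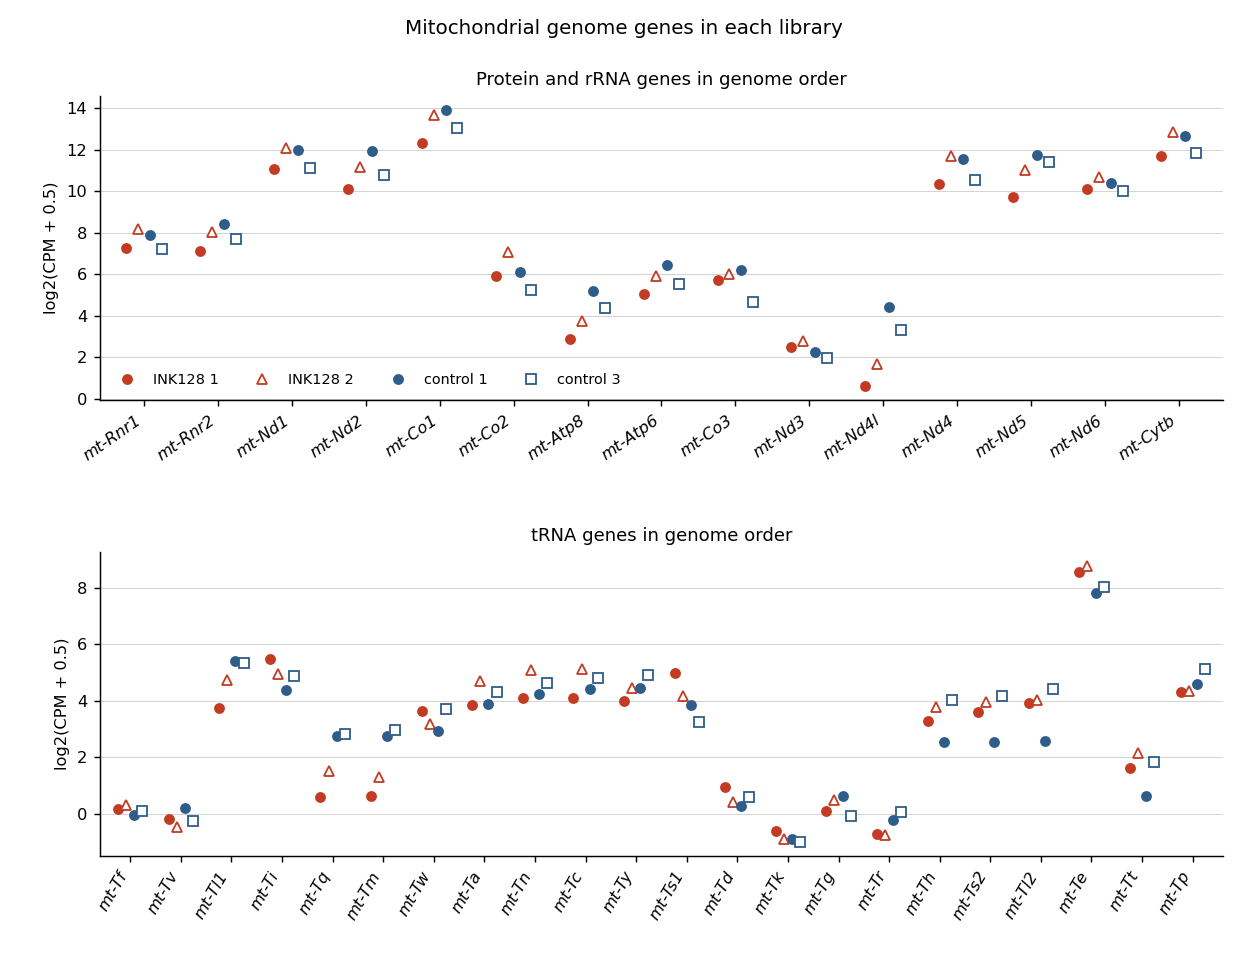
Level of every mitochondrial gene in each library as log2(CPM + 0.5), with protein and rRNA genes above and tRNA genes below, both in genome order; each point is 1 library, INK128 in red and control in blue. The points of mt-Atp8, mt-Nd4l, mt-Tq and mt-Tm separate by group, those of most protein genes do not, and mt-Co2 to mt-Nd4l lie far below the genes on either side.

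Per length, mt-Co1 led with a mean over the 4 libraries of 6840 CPM per kb, followed by mt-Te with 4670 CPM per kb and mt-Cytb with 4530 CPM per kb. Single libraries ran from 3360 to 9990 CPM per kb for mt-Co1, from 3250 to 6280 CPM per kb for mt-Te and from 2870 to 6530 CPM per kb for mt-Cytb, so these neighbours in the order did not differ beyond their spread. Then came mt-Nd1 (3330 CPM per kb), mt-Nd6 (2460 CPM per kb), mt-Nd2 (2180 CPM per kb), mt-Nd4 (1640 CPM per kb) and mt-Nd5 (1240 CPM per kb), each overlapping the next. The place of mt-Te in this order is uncertain, since it is only 69 bases long and directly adjoins mt-Nd6. Reads that cover it only in part may have been counted, which would raise its value per kb relative to longer genes. The 5 mRNAs with nearly all windows shared were at 110 CPM per kb for mt-Co2, 82.7 for mt-Atp6, 68.6 for mt-Co3, 29.1 for mt-Nd4l and 13.8 for mt-Nd3. They held 0.696% of mitochondrial counts, and mt-Atp8, which lies among them, was at 93.6 CPM per kb. The rRNAs were at 215 CPM per kb for mt-Rnr1 and 148 for mt-Rnr2. With all counts of a gene divided by its unshared windows alone, and no reads counted anew, the means were 10600 CPM per kb for mt-Co1, 4960 for mt-Cytb, 4510 for mt-Nd4 and 3720 for mt-Nd1.

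Counts on the chromosome 1 copies followed the same split. Gm10925, the copy of mt-Atp6, had between 68.6% and 108% of the counts of mt-Atp6 in a library, and Gm28437, the copy of mt-Co3, between 75.4% and 95.6% of those of mt-Co3. Gm28661 had 33.1% to 59.5% of the counts of mt-Co2, and Gm28438, which differs from mt-Nd3 by 1 base, had 314% to 575% of the counts of mt-Nd3. By contrast, Gm29216 had 0.144% to 0.523% of the counts of mt-Co1 and Gm28439 had 0.30% to 0.965% of those of mt-Nd4, genes with long stretches outside the copied run. With the copies added, the log2 fold change of mt-Co2 was 0.72 and that of mt-Nd3 was 0.88, neither past the test (adjusted p = 0.292 and 0.195, edgeR).

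In the test across all genes, no mitochondrial gene was called with INK128. Genes were called when they changed by more than 1.5-fold with an adjusted p under 0.05. Of the 37 genes, 26 passed the filter of a mean CPM above 10, and edgeR called 0 of them, against 6.37% of all 11758 genes tested. At an unadjusted p below 0.05 there were 3 of 26, mt-Te, mt-Atp8 and mt-Tl1, against 36.4% of all genes. Another 5 genes had a mean between 1 and 10 CPM, and edgeR called 0 of these 5 in a fit that called 0% of its 17631 genes, with 3 of them, mt-Nd4l, mt-Tm and mt-Tq, at an unadjusted p below 0.05, against 32.9% of all genes. DESeq2 called 2 of the 26, mt-Te as higher and mt-Atp8 as lower, against 28.6% of all genes, and limma voom called 0 in a fit that called 0% of all genes. Of the 5 low genes DESeq2 called 3 as lower, mt-Nd4l, mt-Tm and mt-Tq, against 13.6% of all genes called lower and 23.8% in either direction, and limma voom again called 0 of them and 0% of all genes. Nothing in the sources says that the libraries of a group came from separate animals, so these p-values measure the spread between samples, which may be technical.

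The median log2 fold change of the 26 genes was 0.08, against -0.03 over all genes tested, with 17 above 0 and 9 below. By class it was 0.02 for the 11 mRNAs, -0.12 for the 2 rRNAs and 0.20 for the 13 tRNAs. With offsets for exon length it was -0.35 (all genes 0.05). Library totals in place of TMM factors moved the median of all genes to -0.15 and that of the 26 genes to -0.05, which stayed above it. It was 0.33 without INK128 1 and -0.47 without INK128 2. Both INK128 libraries were above both controls for 3 of the 26 genes (mt-Ti, mt-Ts1 and mt-Te) and below them for 4 (mt-Tl1, mt-Atp8, mt-Nd5 and mt-Tp), while such separation in either direction held for 68.5% of all genes tested. Leaving out control 1 gave 8 calls among the 26 and leaving out control 3 gave 11, in fits that called 45.8% and 42.6% of all genes, and leaving out either INK128 library gave 0 in fits that called 0% of all genes. mt-Te was higher, and mt-Tl1 and mt-Atp8 lower, in both of these fits with calls.

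**Figure D3:**
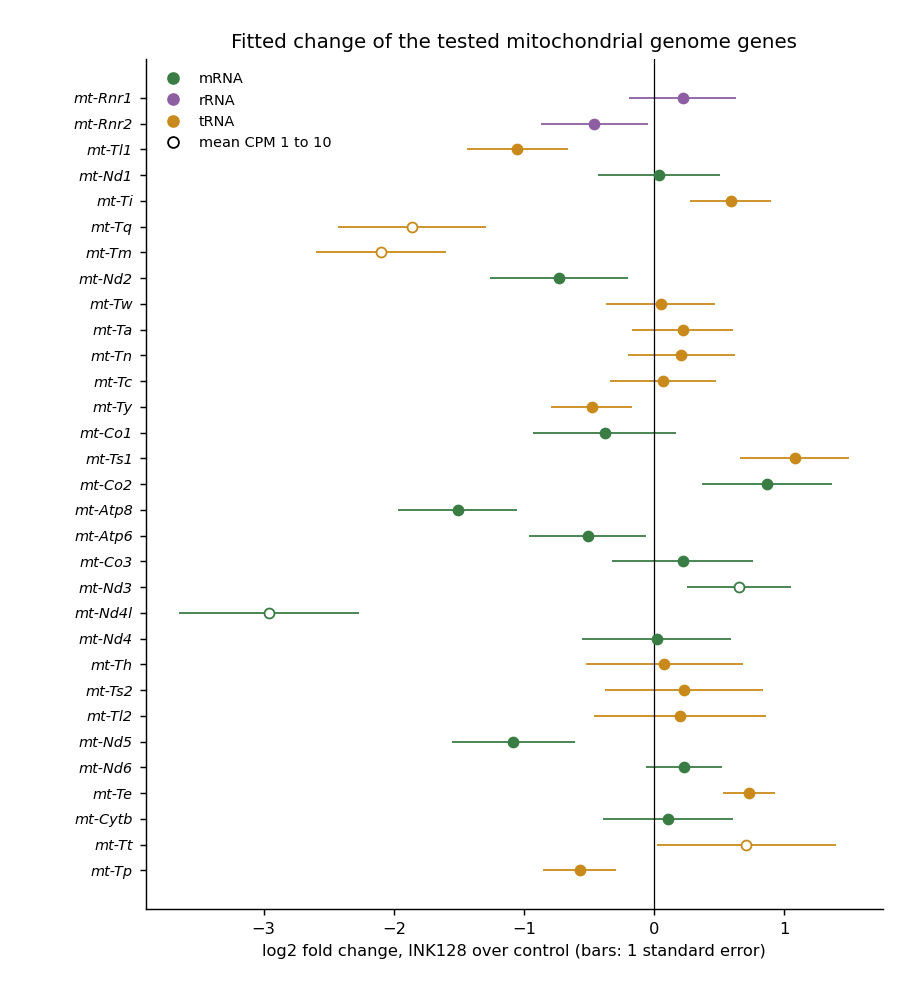
Fitted log2 fold change of INK128 over control for the 31 tested mitochondrial genes in genome order, with bars of 1 standard error; colours mark the RNA class and open points are genes with a mean of 1 to 10 CPM. The points spread to both sides of 0, mt-Nd4l (-2.96), mt-Tm (-2.10), mt-Tq (-1.86) and mt-Atp8 (-1.51) lie farthest below, and mt-Ts1 (1.08) lies farthest above.

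Ratios between mitochondrial genes in the same library do not depend on how libraries are scaled, and several of them separated the groups. mt-Rnr1 had 111% and 113% of the counts of mt-Rnr2 in the INK128 libraries and 69.5% and 70.9% in the controls. The libraries of a group were thus close in this ratio, while the levels of both genes differed between them by a ratio of 1.61 or more. mt-Nd2 had 52.0% and 53.0% of the counts of mt-Nd1 with INK128 and 95.1% and 79.0% in controls 1 and 3. mt-Nd5 had 25.7% and 27.6% of the counts of mt-Cytb with INK128 and 53.4% and 75.8% in controls. mt-Atp8 had 21.6% and 21.2% of the counts of mt-Atp6 with INK128 and 41.9% and 44.3% in controls, and mt-Nd4l 0.0790% and 0.0843% of those of mt-Nd4 against 0.707% and 0.643%. In each of these pairs the first gene was lower relative to its partner with INK128, apart from mt-Rnr1, which was higher.

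The differences of the log2 ratios were 0.67 for mt-Rnr1 to mt-Rnr2, -0.72 for mt-Nd2 to mt-Nd1, -1.26 for mt-Nd5 to mt-Cytb, -1.01 for mt-Atp8 to mt-Atp6 and -3.05 for mt-Nd4l to mt-Nd4. The last leaves out the counts of the copy Gm10222, which were 332% and 270% of those of mt-Nd4l with INK128 and 58.8% and 93.9% in controls. Of 12 ratios computed, 8 did not overlap between groups, each with p = 0.333 in the two-sided exact permutation test (n = 2 and 2), the smallest that it can give, and 0.5 after adjustment over the 12. The 8 are not all distinct, as mt-Nd5 was set against mt-Cytb and against the other mRNAs. INK128 2 and control 3 nearly met in mt-Nd6 per other mRNA (5.03% and 5.01%) and mt-Te per mRNA (1.26% and 1.22%). The 8 of 12 are no larger a share than the 68.5% of all genes whose levels did not overlap, while 24.8% of all genes did not overlap after division by the mitochondrial mRNA count. The 24.8% is not a like measure, because most of those genes, unlike the mitochondrial mRNAs, did not keep the order of libraries of that count. Most of these pairs were chosen after the values were seen. Whether the cells behind the oocyte, granulosa, kidney, immune, muscle, erythroid and endothelial marker sums, which also separated the groups, have a part in them was not tested.

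Ratios of whole classes overlapped. The rRNAs had 1.91% and 1.59% of the mRNA counts with INK128 and 1.51% and 1.64% in controls, a log2 difference of 0.14 (exact permutation p = 0.667), which was -0.17 with mt-Rnr2 alone. The tRNAs had 3.93%, 2.04%, 1.16% and 2.62% of the mRNA counts, and minus-strand genes had 11%, 6.68%, 4.52% and 6.86% of the counts of plus-strand genes. Both were highest in INK128 1 and lowest in control 1, the libraries with the lowest and the highest mitochondrial share. mt-Nd6 had 7.85%, 5.03%, 3.66% and 5.01% of the counts of the other mRNAs, so that INK128 2 and control 3 nearly met.

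**Figure D4:**
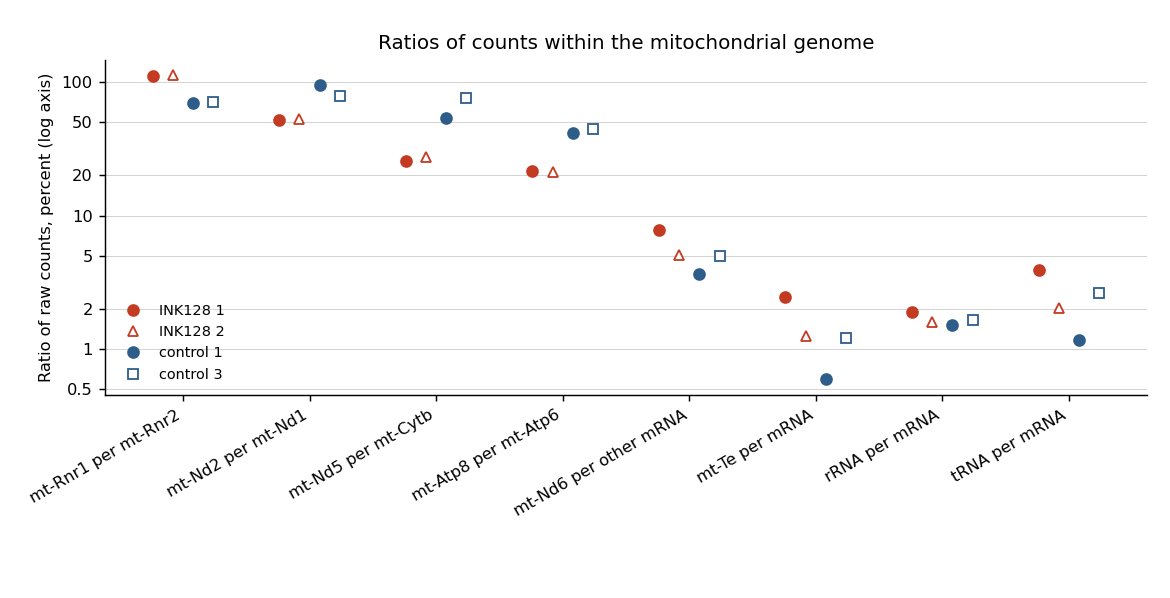
Counts of 1 gene or class as a percent of another in the same library, on a log axis, with each point 1 library (INK128 red, control blue). For mt-Rnr1 per mt-Rnr2 the INK128 libraries sit at 111% and 113% and the controls at 69.5% and 70.9%; the ratios of all rRNA and all tRNA to mRNA overlap between the groups.

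Within the mRNA counts, mt-Co1 held 34.3% and 38.2% with INK128 and 40.8% and 39.5% in controls, and mt-Cytb 21.6% and 21.6% against 16.9% and 16.9%. mt-Nd1 held 14.3% and 12.5% against 10.8% and 10.3%, and mt-Nd5 5.56% and 5.97% against 8.99% and 12.8%. As shares of the mRNA counts, 6 of the 13 genes were higher in both INK128 libraries (mt-Nd1, mt-Co2, mt-Nd3, mt-Nd4, mt-Nd6 and mt-Cytb), 6 were lower in both (mt-Nd2, mt-Co1, mt-Atp8, mt-Atp6, mt-Nd4l and mt-Nd5) and mt-Co3 overlapped. Among these, mt-Co2, mt-Nd3, mt-Atp6, mt-Nd4l and mt-Co3 have nearly all windows shared with copies, whose counts are left out. Their shares, and the side on which they fall, may depend on how shared reads were counted. Over all 11758 genes tested, levels did not overlap between groups for 68.5%, and levels divided by the mitochondrial mRNA count did not for 24.8%. The 24.8% is not a like measure for parts of that count. The count differed within each group, and only 26.0% of all genes kept its order of libraries, against all 13 protein genes. Shares of 1 total are tied to each other, so these are given with no test.

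Nuclear genes of the same complexes were tested in the same fit. Of 78 nuclear subunits listed, 74 were tested, and 22 were called higher and 0 lower, against 6.37% of all genes called in either direction and 3.18% called higher. The median log2 fold change was 1.0 against -0.03 over all genes, and 0.56 against 0.05 with offsets for exon length. The gene with the lowest p was Ndufa2 in complex I (log2 fold change 1.54), Uqcrh in complex III (1.47), Cox6b2 in complex IV (1.82) and Atp5e in complex V (1.66), each with an adjusted p of 0.0464 (edgeR). The number of calls moved with the fit over the whole table. Offsets for exon length, limma voom, a filter of a mean CPM above 1 and leaving out either INK128 library each called 0% of all genes and so 0 subunits, with subunit medians of 0.56, 1.01, 1.05, 0.96 (without INK128 1) and 0.94 (without INK128 2). DESeq2 called 52 as higher (against 28.6% of all genes in either direction). With a control left out, the subunit median was 0.90 (without control 1) and 1.07 (without control 3), against 0.01 over all genes in each.

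Summed over complex I, the 7 mitochondrial genes were at 6520, 13600, 15800 and 9200 CPM and the 37 nuclear genes at 4220, 4270, 2070 and 2340 CPM. The ratio of mitochondrial to nuclear CPM was thus 1.54 and 3.18 with INK128 and 7.61 and 3.93 in controls, with both INK128 libraries lower. For complex IV the ratio was 1.92 and 4.40 against 11.1 and 5.77, and for complex V 0.00790 and 0.0148 against 0.0395 and 0.0165, also lower in both. For complex III it was 2.22 and 4.37 against 7.41 and 3.57, so that the groups overlapped. Levels did not overlap between groups for 68.5% of all genes tested. In complex V, mt-Atp6 has 99.5% of its windows shared with another annotated transcript, and mt-Atp8 lies within the copied run. The mitochondrial sum of complex V therefore depends on how shared reads were counted, and the copies were not added.

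The log2 differences of these ratios were -1.30 for complex I, -0.72 for III, -1.46 for IV and -1.24 for V. The exact permutation p was 0.333 for complexes I, IV and V and 0.667 for III (two-sided, n = 2 and 2), and 0.444 and 0.667 after adjustment over the 4 complexes. In complex I the mitochondrial part of the difference was -0.36 and the nuclear part 0.95, in complex III they were 0.05 and 0.77, in complex IV -0.45 and 1.01, and in complex V, where the mitochondrial part was the larger in size, -0.75 and 0.49. With the median gene in place of the sum, the difference was -0.17 for complex IV, where mt-Co1 makes up most of the sum, and -1.42, -0.84 and -1.96 for complexes I, III and V. For complex IV the groups then overlapped (exact permutation p = 0.667). The median mitochondrial gene there was mt-Co2 or mt-Co3, with 99.5% and 99.9% of windows shared with another annotated transcript. Leaving out 1 library kept the sign in all 4 complexes, with values from -0.78 to -1.82 for complex I, from -0.20 to -1.25 for III, from -0.86 to -2.06 for IV and from -0.61 to -1.87 for V, the smallest in size without INK128 1 for complexes I and IV and without control 1 for III and V.

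**Figure D5:**
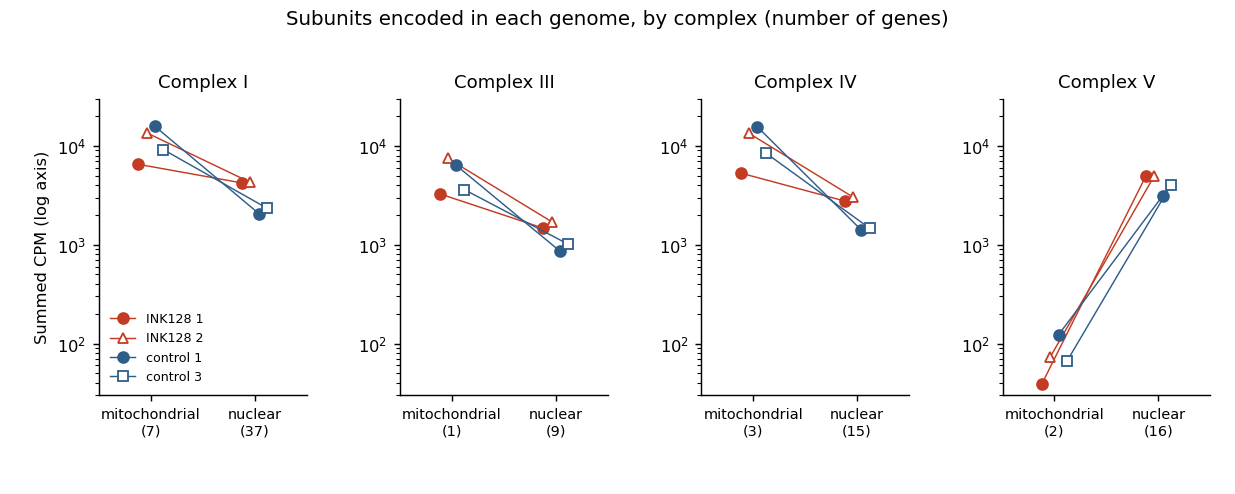
Summed CPM, on a log axis, of the mitochondrial and the nuclear subunits of complexes I, III, IV and V, with each line joining both sums of 1 library (INK128 red, control blue). The nuclear sums are higher in both INK128 libraries in all 4 complexes, while the mitochondrial sums of the 2 groups overlap. Copies are not added to the mitochondrial sums, and nearly all windows of mt-Atp6, in complex V, are shared with a copy.

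The nuclear genes that copy, transcribe, process and decode mitochondrial RNA were tested in that fit too. Of 74 such genes in 8 lists, 64 were tested and edgeR called 0, against 6.37% of all genes, with 10 at an unadjusted p below 0.05, against 36.4%. DESeq2 called 5 as higher (Hsd17b10, Mterf4, Rexo2, Slirp and Ssbp1), against 28.6% of all genes in either direction, and limma voom called 0 and 0% of all genes. The median log2 fold change was 0.12, with 42 genes above 0 and 22 below. The mitochondrial RNA polymerase Polrmt was at 26.7, 28.7, 34.0 and 26.0 CPM (log2 fold change -0.12), Tfam, which packs mitochondrial DNA and starts its transcription, at 52.8, 44.5, 40.0 and 42.5 CPM (0.24), and Tfb2m, which opens the promoter, at 19.3, 23.1, 24.8 and 26.6 CPM (-0.28). None of these 3 passed the test, with adjusted p from 0.401 to 0.734 (edgeR).

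Lrpprc and Slirp form a complex that holds mitochondrial mRNAs stable. Lrpprc was at 70.3, 58.8, 64.9 and 68.0 CPM and its groups overlapped, whereas Slirp was at 107, 105, 50.7 and 64.4 CPM, higher in both INK128 libraries, with a log2 fold change of 0.88 (SE 0.19, adjusted p = 0.0583, edgeR). Hsd17b10, a subunit of the enzyme that cuts the 5′ ends of mitochondrial tRNAs, was at 148, 167, 86.6 and 82.6 CPM (log2 fold change 0.89, adjusted p = 0.0512, edgeR). The genes with the lowest p in the other lists were Mterf4 (log2 fold change 0.85), Ssbp1 (0.72), Rexo2 (0.70), Mrm3 (0.96), Trit1 (0.79) and Kars (0.32), none past the test. Without control 1 there were 9 calls as higher in these lists, and without control 3 there were 7 as higher and 3 as lower, in fits that called 45.8% and 42.6% of all genes.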

How the data were processed

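The authors deposited 1 table of raw read counts per gene symbol for 4 libraries of polyA RNA, neither normalized nor pooled. Per the study's methods and the submitters' processing notes, reads were trimmed with Trimmomatic, aligned to mm10 with HISAT2 and counted with featureCounts on an annotation named RefGene. The settings for strand and for reads with several matches are not given in the sources used here. Groups and library numbers came from the labels. From the counts, CPM with TMM factors were computed, and all genes with a mean CPM above 10 (11758 genes) were fitted with edgeR 4.0.16 in R 4.3.3 (quasi-likelihood F-test, treatment only, Benjamini-Hochberg adjustment over all genes tested; common dispersion 0.0949). Members with a mean of 1 to 10 CPM were taken from a fit of the 17631 genes above 1 CPM, and those below had no test. Genes were called when they changed by more than 1.5-fold with an adjusted p under 0.05. Shares and ratios were compared by exact permutation over libraries (scipy 1.17.1). Gene positions, lengths and sequences came from GENCODE vM21 (GRCm38, mm10), where all 37 members matched by symbol. No genome sequence was used here, so shared windows were searched in annotated transcripts, with BLAST+ 2.17.0 for inexact copies. tRNA genes are shorter than the window of 100 bases and were not searched. The alternatives were DESeq2 1.42.0, limma 3.58.1 (voom), other scalings and filters, no fold change limit, exon length offsets, and each library left out. The floor of 3 counts corresponds to 0.127 to 0.161 CPM and, like the binomial intervals, covers counting error only. The members, all of which are named, and the lists of other genes (5 machinery genes always named, plus the gene with the lowest p in each list) were chosen with earlier results of these data known.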

Additional observations from a re-analysis of the deposited data

How the results depend on the processing

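No paired analysis was made, since nothing in the sources used here describes pairs of INK128 and control libraries. The calls depended on the tool, the filter and single libraries. Among the 26 members tested, the main count of 0 higher became 1 with DESeq2 and between 0 and 5 when a library was left out, and the count of 0 lower became 1 with DESeq2, 1 with all genes of at least 1 count, and between 0 and 6 when a library was left out. Among the 5 low members, 0 higher became 0 to 1 without a library, and 0 lower became 3 with DESeq2, 2 with at least 1 count and 0 to 3 without a library. For the machinery genes, 0 higher became 5 with DESeq2, 2 with at least 1 count and 0 to 9 without a library, and 0 lower became 0 to 3. For the nuclear subunits, 22 higher became 52 with DESeq2, 52 with at least 1 count and 0 with exon length offsets, limma voom or a mean CPM above 1, and 0 to 64 without a library, while 0 lower became 0 to 1. Over all genes, the share called was 6.37% as reported, 28.6% with DESeq2, 9.86% with at least 1 count, 45.8% without control 1, 42.6% without control 3, and 0% with exon length offsets, limma voom, a mean CPM above 1 or either INK128 library left out. A left-out library leaves 1 in its group, which is then assumed to vary like the other group. The cause of these changes was not tested.

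The difference of the mitochondrial share, -0.42, ran from -0.97 to 0.14 when a library was left out, and that of the rRNA to mRNA ratio, 0.14, was -0.17 with mt-Rnr2 alone. Signs of single genes turned only where their adjusted p was above 0.1. With exon length offsets the log2 fold changes were -0.31 for mt-Rnr1, -0.49 for mt-Nd1, -0.33 for mt-Tw, -0.18 for mt-Ta, -0.20 for mt-Tn, -0.33 for mt-Tc, -0.30 for mt-Co3, -0.43 for mt-Nd4, -0.28 for mt-Th, -0.12 for mt-Ts2, -0.17 for mt-Tl2, -0.36 for mt-Nd6 and -0.38 for mt-Cytb, and with the sign kept -0.91 for mt-Rnr2, -1.22 for mt-Nd2, 0.20 for mt-Ti, -0.83 for mt-Co1, -1.07 for mt-Atp6, -0.97 for mt-Tp and -0.88 for mt-Ty. With library totals in place of TMM factors, which moved the median of all genes from -0.03 to -0.15, they were -0.09 for mt-Nd1, -0.07 for mt-Tw, -0.06 for mt-Tc, -0.11 for mt-Nd4, -0.04 for mt-Th and -0.02 for mt-Cytb, and with limma voom -0.05 for mt-Nd4. When a library was left out, the log2 fold changes ran for mt-Rnr1 from -0.33 to 0.61, mt-Nd1 from -0.56 to 0.55, mt-Tw from -0.31 to 0.53, mt-Ta from -0.26 to 0.57, mt-Tn from -0.38 to 0.62, mt-Tc from -0.56 to 0.49, mt-Co1 from -1.21 to 0.13, mt-Atp6 from -1.05 to 0.02, mt-Co3 from -0.37 to 1.22, mt-Nd4 from -0.81 to 0.61, mt-Th from -0.50 to 1.09, mt-Ts2 from -0.38 to 1.31, mt-Tl2 from -0.47 to 1.46, mt-Nd6 from -0.10 to 0.48 and mt-Cytb from -0.62 to 0.58. With the sign kept, they ran for mt-Rnr2 from -1.0 to -0.06, mt-Ti from 0.28 to 0.88, mt-Tp from -0.83 to -0.26, mt-Ty from -0.75 to -0.22, mt-Ts1 from 0.60 to 1.44, mt-Tt from 0.14 to 1.67, mt-Tq from -2.62 to -1.39, mt-Tm from -2.62 to -1.74, mt-Nd3 from 0.46 to 0.81 and mt-Nd4l from -3.88 to -2.27.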
